A study of Homo sapiens with 18 samples.

Results

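The 8 genes described here encode transcription factors of the ETS family: ETV1, ETV4 and ETV5 of the PEA3 group, ETS1 and ETS2, ELK3 of the ternary complex factors, ETV6 and the epithelial factor ELF3. They are 8 of 27064 genes with a name in the files and 8 of the 28 ETS family genes of the human genome. They were chosen by the measured differences of each hairpin from its own control in these libraries, so that those differences and the group levels are given as a description and support nothing further. The cells were 786-O, an established line from a human clear-cell renal carcinoma without functional VHL. The knocked-down genes were USP13, whose product removes ubiquitin from proteins, and ZHX2, whose product is a nuclear factor with zinc fingers and homeodomains. In the USP13 experiment, cells carried the hairpin sh50, the hairpin sh52 or the control hairpin shCtrl. In the ZHX2 experiment, they carried the hairpin sh43, the hairpin sh45 or a control hairpin shCtrl of that experiment's own. Each of the 6 groups held 3 libraries, 18 in all. The labels do not give the time of harvest, the number of clones or whether replicates were separate cultures. The p-values therefore rest on the spread between these libraries alone, and that spread may be technical. The labels mention a doxycycline-inducible vector for USP13 hairpins but not whether these cells carried it. Their treatment protocol lists hairpins 43 and 45 with USP13, whereas titles and characteristics assign them to ZHX2.

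Levels are estimated read counts scaled to a common library size (CPM), scaled within each experiment, and differences are log2 changes from edgeR. Their standard error (SE) was derived from the test, as the absolute log2 change divided by the square root of the F statistic. A gene is said to have risen or fallen where its adjusted p, taken over all genes tested, was under 0.05. The targeted genes were low where the titles place their hairpins. USP13 measured 36.9, 34.7 and 31.8 CPM in its control, 16.8, 17.2 and 20.5 CPM with sh50, and 14.9, 18.1 and 17.9 CPM with sh52. ZHX2 measured 340.3, 344.2 and 343.9 CPM in its control, 38.6, 43.4 and 38.6 CPM with sh43, and 90.8, 82.1 and 79.6 CPM with sh45. Total counts were between 11192561 and 16511290 per library. The share of counts from mitochondrial rRNA differed between groups: it averaged 2.62% in the USP13 control, 4.25% with sh50 and 3.69% with sh52, and 1.25% in the ZHX2 control, 1.54% with sh43 and 3.09% with sh45. Its part in the results was not tested. One library, sh52 replicate 1, stood apart from its group, with counts for 15481 genes where all others had at least 15858. Calls of the members that change without that library are given both ways. Of 8 kidney tubule and renal carcinoma markers, 7 could be read and summed to between 4062 and 5980 CPM in every library, and NDUFA4L2 was not analysed here. Among leukocyte markers 5 of 8 stayed below 1 CPM in every library, with CD3E at 0. The others reached 61.4 CPM (CD68), 24.7 CPM (CD74) and 1.66 CPM (CD14) at the highest, and the 8 summed to between 21.56 and 63.79 CPM. Also below 1 CPM in every library were 5 of 6 endothelial markers and 2 of 5 fibroblast markers (COL1A2 and DCN). The remaining endothelial marker, ESAM, reached 3.75 CPM at the highest. The other fibroblast markers reached 5.44 CPM (LUM), 3.89 CPM (COL1A1) and 2.10 CPM (PDGFRB) at the highest, and the 5 summed to between 3.15 and 9.50 CPM.

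ETS factors share a winged helix-turn-helix domain that binds DNA around a core of GGA followed by A or T. Many of them are outputs or substrates of the RAS and MAP kinase pathway. The PEA3 group genes are repressed by CIC, a DNA-binding repressor that ERK signalling removes, and their proteins are degraded through the ubiquitin ligase COP1. ELK3 joins serum response factor on immediate early genes, ETV6 is mainly a repressor, and ELF3 is restricted to epithelia. In kidney epithelium and its tumours, ETS1 is known as an activator of matrix proteases and a partner of hypoxia-inducible factors.

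Because several of the members moved together, the start regions of those with an entry in the RefSeq promoter table (GRCh38.p14) are shown. Entries existed for ETV1, ETV6, ETS2, ELK3 and ELF3. Printed below are the 250 bases before the outermost listed start of 4 of them, 5′ to 3′ on the strand of the gene, from windows that hold no base of an exon annotated in GENCODE release 29. They are chr7:13991426-13991675, minus strand, for ETV1, chr12:96194125-96194374, plus strand, for ELK3, chr21:38804933-38805182, plus strand, for ETS2 and chr12:11649424-11649673, plus strand, for ETV6. Capitals mark matches on either strand to the ETS cores GGAAG and GGAAA and to the CIC motif TGAATGG. The searches for the CIC motif TGAATGA and the AP-1 motif TGACTCA gave no match in these 4 windows.
ETV1: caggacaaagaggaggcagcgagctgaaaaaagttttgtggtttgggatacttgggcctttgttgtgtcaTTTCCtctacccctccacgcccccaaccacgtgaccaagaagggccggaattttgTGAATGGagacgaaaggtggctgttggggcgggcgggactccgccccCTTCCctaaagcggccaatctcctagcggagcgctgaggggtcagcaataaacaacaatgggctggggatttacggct
ELK3: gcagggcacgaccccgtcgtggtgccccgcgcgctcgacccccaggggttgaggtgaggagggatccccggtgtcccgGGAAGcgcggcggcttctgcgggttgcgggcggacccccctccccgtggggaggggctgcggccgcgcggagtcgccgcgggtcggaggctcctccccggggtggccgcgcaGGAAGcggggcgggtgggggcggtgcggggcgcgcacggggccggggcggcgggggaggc
ETS2: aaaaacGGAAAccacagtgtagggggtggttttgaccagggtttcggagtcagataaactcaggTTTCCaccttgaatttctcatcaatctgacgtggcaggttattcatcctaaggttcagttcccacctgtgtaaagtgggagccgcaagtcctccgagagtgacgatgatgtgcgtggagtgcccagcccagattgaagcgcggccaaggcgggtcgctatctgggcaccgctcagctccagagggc
ETV6: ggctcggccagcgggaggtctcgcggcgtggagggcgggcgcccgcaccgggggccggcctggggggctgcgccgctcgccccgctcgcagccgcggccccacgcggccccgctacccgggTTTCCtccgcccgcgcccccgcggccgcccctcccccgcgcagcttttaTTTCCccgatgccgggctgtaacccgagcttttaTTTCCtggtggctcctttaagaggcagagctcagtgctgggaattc

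Positions are those of the first marked letter as printed, on the strand of the gene, counted from the start. In the window of ETV1, GGAAG lay on the other strand at -78. There, GGAAA lay at -180, also on the other strand, and the CIC motif at -125 on the strand of the gene. The ELK3 window held the first core at -172 and at -60. ETS2 held the second core at -244 and, on the other strand, at -186, and ETV6 held it on the other strand at -129, -80 and -46. No match overlapped another. The ETS cores are common: of 35116 promoter windows of this length, the first was found in 65.09% and the second in 55.65%. The CIC motif seen in ETV1 was found in 2.577% of all windows, the other CIC motif in 3.355% and the AP-1 motif in 4.203%. ETV1 had 6 entries in the promoter table, and of their windows only the printed one held that motif. A match describes the letters of the window and is no evidence of binding.

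The PEA3 group genes rose together with both ZHX2 hairpins. ETV1 measured 13.5, 12.7 and 12.6 CPM in the ZHX2 control, 39.7, 40.9 and 38.9 CPM with sh43, and 31.3, 33.9 and 28.5 CPM with sh45. The 3 groups did not overlap, and the control values lay within 1 CPM of each other. ETV1 rose by 1.63 on the log2 scale with sh43 (SE 0.09) and by 1.27 with sh45 (SE 0.09). ETV5 measured 33.2, 29.8 and 28.5 CPM in the same control, 70.1, 71.5 and 74.1 CPM with sh43, and 64.2, 64.2 and 64.6 CPM with sh45. Every ETV5 value with a hairpin was thus far above every control value, and it rose by 1.24 (SE 0.07) and by 1.08 (SE 0.07).

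ETV4, the founding gene of the group, was nearly silent in the ZHX2 control and rose most of the 8 on the log2 scale. The control libraries held 9, 22 and 17 counts (0.689, 1.596 and 1.17 CPM), the sh43 libraries 123, 162 and 158 counts and the sh45 libraries 149, 109 and 140 counts. In CPM these are 8.87, 10.3 and 12.6 with sh43 and 9.75, 8.59 and 9.17 with sh45. The groups with hairpins overlapped each other and lay wholly above the control. The log2 change was 3.18 with sh43 (SE 0.22) and 2.98 with sh45 (SE 0.23). This placed ETV4 at rank 69 and rank 34 from the highest change among 13597 genes. ETV4 reached the filter on low counts through the hairpin libraries, where it was high, so that these ranks are a description. ETV4 overlaps DHX8 in the annotation, and a kit that does not mark strand leaves shared reads ambiguous. DHX8 averaged 52.8 CPM in the control, 65.6 CPM with sh43 and 42.8 CPM with sh45.

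With the USP13 hairpins 2 PEA3 group genes, ETV1 and ETV5, could be tested, and 0 were called by edgeR or DESeq2 with either hairpin. In edgeR, 1 of the 2 had an unadjusted p under 0.05 with sh50 and 0 had one with sh52. ETV1 measured 8.73, 5.89 and 7.65 CPM in the control, 11.0, 8.78 and 9.61 CPM with sh50, and 6.65, 5.17 and 8.83 CPM with sh52. The sh50 values lay just above the control, without overlap, whereas the sh52 values spread across it. The log2 change was 0.40 with sh50 (SE 0.18) and -0.09 with sh52 (SE 0.19). The second of these changed sign, to 0.07 without sh52 replicate 2 and to 0.04 without control replicate 1. ETV5 measured 15.4, 13.3 and 12.1 CPM in the control, 15.7, 13.8 and 15.8 CPM with sh50, and 12.7, 11.9 and 12.3 CPM with sh52, overlapping in both cases. ETV4 had 1, 5 and 2 counts in the control libraries, 2, 4 and 3 with sh50 and 0, 1 and 2 with sh52. It did not reach the filter on low counts there, so that a fall or a small rise was not detectable at this depth.

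**Figure D1:**
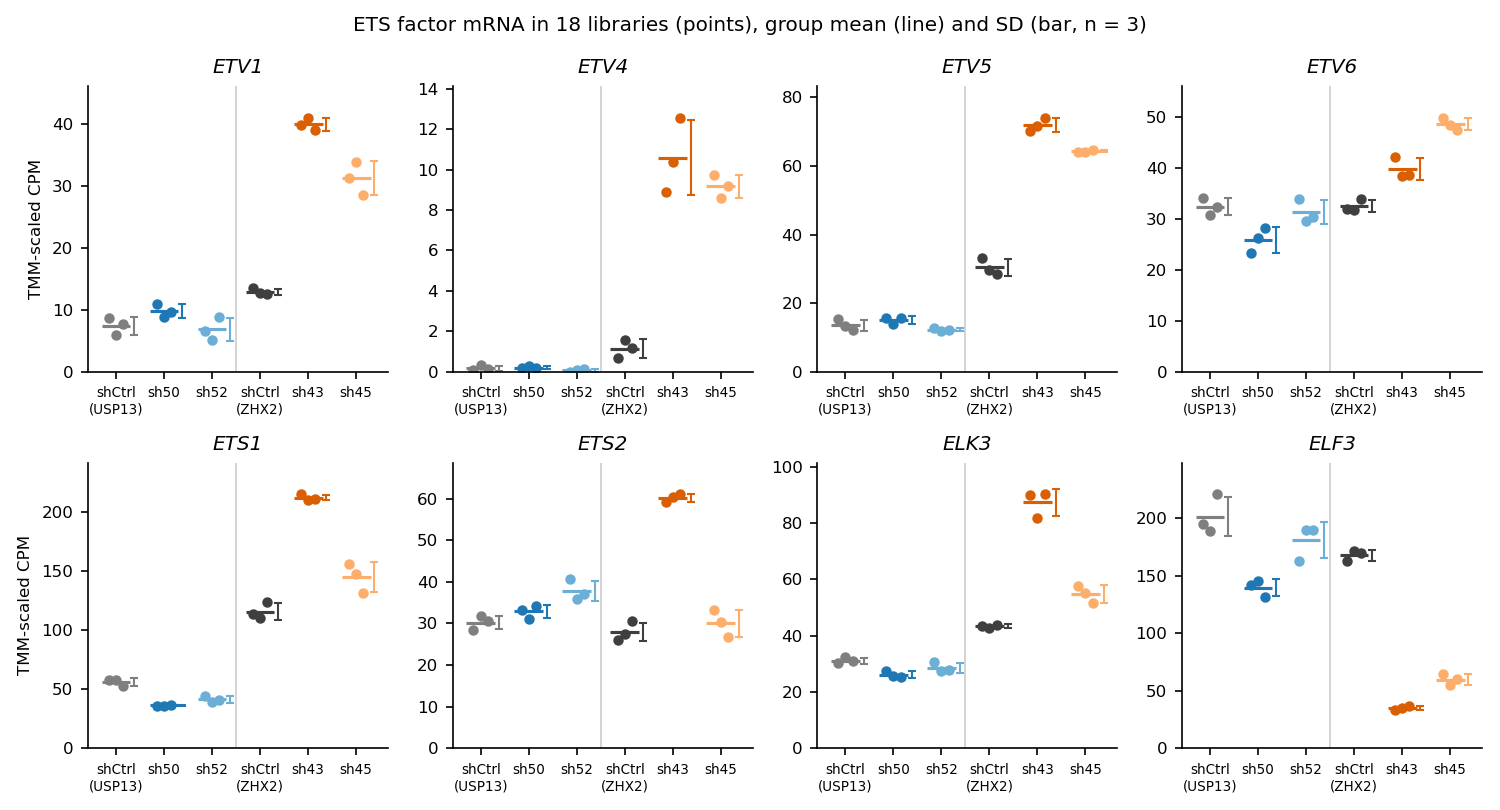
Level of each ETS factor in CPM, scaled within an experiment, in every library, with a line at the group mean and a bar for the SD of 3 libraries. Grey lines part the USP13 experiment (left) from the ZHX2 experiment (right). ETV1, ETV4 and ETV5 are high with sh43 and sh45, ETS2 with sh43 alone, and ELF3 is at its lowest with sh43, between 33.02 and 36.56 CPM.

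ETS1 was the member that passed the test with all 4 hairpins, and it moved in opposite directions in the 2 experiments. In the ZHX2 control it measured 113.3, 110.1 and 123.7 CPM, against 215.1, 210.6 and 211.2 CPM with sh43 and 156.0, 147.2 and 131.2 CPM with sh45. The sh43 libraries were the highest and the most tightly grouped, and those of sh45 lay between them and the control. ETS1 rose by 0.87 with sh43 (SE 0.06) and by 0.32 with sh45 (SE 0.06). In the USP13 control it measured 58.2, 58.2 and 52.5 CPM, against 35.9, 35.9 and 37.0 CPM with sh50 and 44.3, 39.1 and 40.8 CPM with sh52. All 6 hairpin values lay below all 3 controls, and ETS1 fell by 0.64 with sh50 (SE 0.08) and by 0.44 with sh52 (SE 0.08). It was the only one of the 8 to change in 1 direction with both USP13 hairpins, as 7.42% of all genes tested did.

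ETS2, the close paralogue of ETS1 and likewise a direct substrate of ERK, passed the test with 1 hairpin of each experiment. It measured 26.1, 27.4 and 30.5 CPM in the ZHX2 control and 59.2, 60.4 and 61.0 CPM with sh43, a rise of 1.10 (SE 0.08). With sh45 it measured 33.2, 30.3 and 26.7 CPM, a range that overlapped the control, with a log2 change of 0.10 (SE 0.08) that did not pass. In the USP13 experiment ETS2 measured 28.4, 31.7 and 30.5 CPM in the control, 33.3, 31.2 and 34.2 CPM with sh50 and 40.6, 35.9 and 37.0 CPM with sh52. Only the sh52 libraries lay wholly above the control. Their rise of 0.32 (SE 0.09) rests on single libraries, since it was 0.27 without sh52 replicate 1, the library that stood apart, and 0.28 without control replicate 1, and passed the test in neither case. The sh50 change was 0.12 (SE 0.09).

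ELK3, which represses its targets until it is phosphorylated by ERK, followed ETS1 in the ZHX2 experiment. It measured 43.6, 42.7 and 43.9 CPM in the control, 89.98, 81.76 and 90.20 CPM with sh43 and 57.7, 55.2 and 51.5 CPM with sh45. The 3 ranges were separate, and ELK3 rose by 1.01 (SE 0.07) and by 0.34 (SE 0.07). With USP13 hairpins it measured 27.5, 25.6 and 25.4 CPM (sh50) and 30.6, 27.4 and 27.9 CPM (sh52), against 30.2, 32.3 and 30.9 CPM in the control. The fall of 0.25 with sh50 (SE 0.09) lay close to the threshold and no longer passed under 5 other ways of processing or when any 1 of 7 libraries was left out. The change with sh52 was -0.12 (SE 0.09).

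ETV6, a repressor known from leukaemia fusions, rose least of the 7 with sh43. It measured 32.0, 31.7 and 34.04 CPM in the ZHX2 control, 42.3, 38.4 and 38.6 CPM with sh43, and 49.9, 48.5 and 47.5 CPM with sh45. ETV6 was the 1 member that rose more with sh45 than with sh43, by 0.58 (SE 0.07) against 0.29 (SE 0.07). In the USP13 control it measured 34.1, 30.9 and 32.3 CPM, against 23.2, 26.3 and 28.3 CPM with sh50 and 34.01, 29.72 and 30.44 CPM with sh52. The sh50 libraries all lay below the control, a fall of 0.31 (SE 0.10) that did not pass without sh50 replicate 1, sh50 replicate 2 or control replicate 1. With sh52 the ranges overlapped and the change was -0.04 (SE 0.09).

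ELF3 was the most abundant member in both controls and the only 1 of the 8 to fall with ZHX2 hairpins. It measured 162.6, 171.8 and 169.4 CPM in the ZHX2 control, 33.02, 34.81 and 36.56 CPM with sh43, and 64.8, 54.7 and 59.9 CPM with sh45. These are falls to 0.207 and 0.357 of the control on the fitted scale. On the log2 scale ELF3 fell by 2.27 (SE 0.07) and by 1.49 (SE 0.06), rank 210 and rank 208 from the lowest change among 13597 genes. In the USP13 control it measured 194.7, 188.6 and 220.9 CPM, against 141.7, 145.9 and 131.8 CPM with sh50 and 163.3, 190.2 and 190.1 CPM with sh52. The sh50 libraries lay apart from the control, a fall of 0.53 (SE 0.07), while the sh52 range overlapped it, with a change of -0.15 (SE 0.07) that did not pass.

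Counted together, 7 of 8 members rose and 1 fell with sh43, where 68.8% of 13597 genes were called, and 6 rose and 1 fell with sh45, where 52.6% were. Both ZHX2 hairpins moved 7 of the 8 in 1 direction (6 up, 1 down), as they did 30.0% of all genes. With sh50, 4 of 7 tested members fell and none rose (21.5% of 13708 genes called), and with sh52 1 rose and 1 fell (12.0%). The median log2 change of the members was 1.06 with sh43, 0.46 with sh45, -0.25 with sh50 and -0.12 with sh52, beside -0.02, -0.01, 0.00 and 0.00 over all genes tested. Since these contrasts chose the members, nothing is read from the difference. With 3 libraries of a group against 3, the values of all 8 members with sh43, 7 of 8 with sh45, 5 of 7 with sh50 and 2 of 7 with sh52 did not overlap the control, beside 70.3%, 57.2%, 38.2% and 27.8% of all genes.

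**Figure D2:**
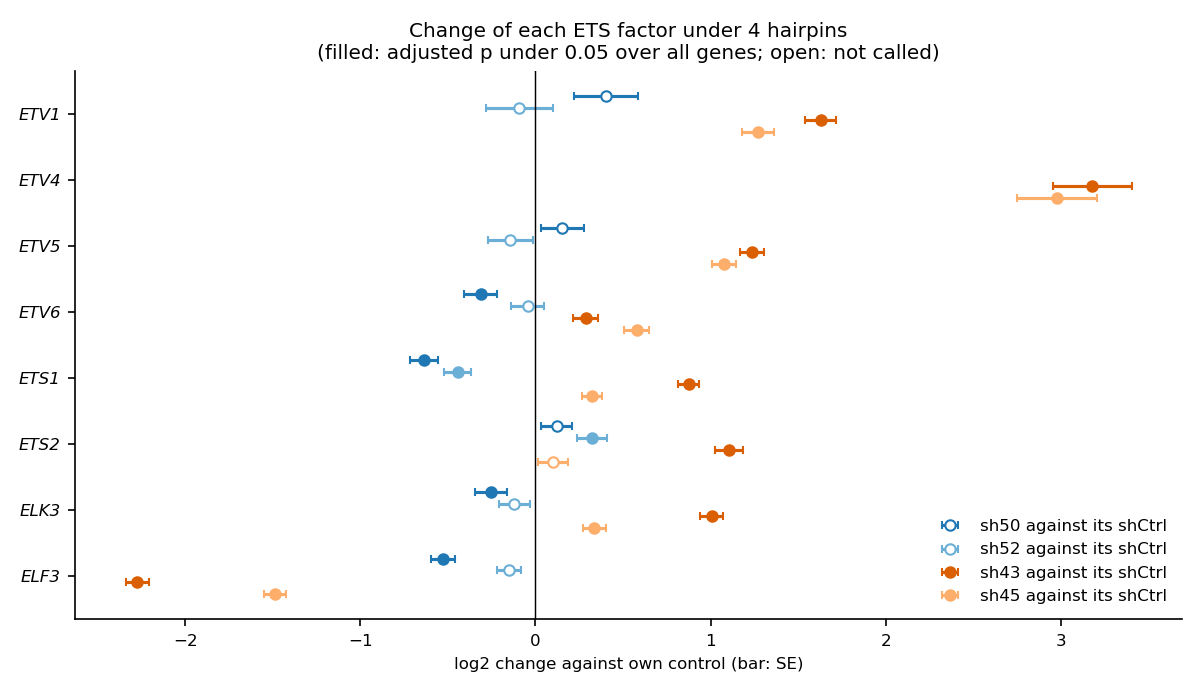
Log2 change of each ETS factor with 4 hairpins, each against the control hairpin of its own experiment, with a bar for the SE. Filled points passed the threshold over all genes tested and open points did not. ETS1 is the member whose 4 points are all filled, to the left for both USP13 hairpins (-0.64 and -0.44) and to the right for both ZHX2 hairpins (0.87 and 0.32), and ETV4 was not tested with sh50 and sh52.

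The difference between the hairpins of 1 target follows from the same contrasts that chose the members and is given as a description, its edgeR calls included. Between sh45 and sh43, 7 of 8 members were past the threshold, as were 66.8% of all genes. ETS2 was lower with sh45, with a log2 difference of -1.004 (SE 0.08), and its sh45 libraries all lay below every sh43 library. The same held for ELK3 (-0.67, SE 0.06), ETS1 (-0.55, SE 0.06) and ETV1 (-0.36, SE 0.08). ELF3 was higher with sh45 by 0.78 (SE 0.07), and ETV6 was higher by 0.29 (SE 0.07). The difference was -0.16 for ETV5 (SE 0.06), which became -0.09 with upper-quartile scaling, and -0.20 for ETV4 (SE 0.16), whose ranges overlapped. By their log2 changes, 6 of the 7 members that rose with sh43, all but ETV6, lay nearer to the control with sh45, as did ELF3. ZHX2 itself was higher with sh45 by 1.06 (SE 0.06), and its part in these differences was not tested.

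Between sh52 and sh50, 1 of 7 tested members was past the threshold, beside 10.2% of all genes. This was ELF3, which was higher with sh52 by 0.37 (SE 0.07), with 3 of 3 libraries above every sh50 library. For ETV1 the log2 difference was -0.50 (SE 0.19), for ETV6 0.27 (SE 0.10) and for ETS1, which fell with each hairpin, 0.19 (SE 0.08). The ranges with sh50 and sh52 did not overlap for ETS1, ETS2, ETV5, ETV6 and ELF3, and overlapped for ETV1 and ELK3. The share of all genes without overlap was not worked out for this pair.

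To compare levels between genes, the deposited TPM values (transcript abundance scaled to a common total) were summed per gene, since they account for transcript length. ELF3 was highest in both controls, at 112 ± 7.11 TPM in the USP13 experiment and 97.9 ± 2.67 TPM in the ZHX2 experiment (SD, n = 3 each). ETS1 came next at 19.1 ± 1.53 and 41.4 ± 3.43 TPM, then ELK3 at 14.8 ± 0.46 and 21.3 ± 0.911 TPM. Lowest in both were ETV1, at 1.96 ± 0.40 and 3.57 ± 0.168 TPM, and ETV4, at 0.146 ± 0.0957 and 1.05 ± 0.44 TPM. With sh43 the order was another: ETS1 led with 71.8 ± 2.46 TPM, followed by ELK3 with 41.1 ± 2.8 TPM and ETV5 with 30.1 ± 0.224 TPM, and ELF3, at 19.2 ± 0.553 TPM, came next but one. With sh45, ETS1 led at 45.0 ± 4.75 TPM, ahead of ELF3 at 30.3 ± 3.09 TPM and ETV5 at 24.7 ± 0.471 TPM.

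The control cells of the 2 experiments themselves differed in TPM. ETV5 averaged 5.75 ± 0.839 TPM in the USP13 control and 13.5 ± 1.119 TPM in the ZHX2 control, and ETS1, ETV1, ETV4 and ELK3 were likewise higher in the latter, without overlap. ETS2 (13.7 ± 0.647 and 13.3 ± 1.29 TPM) and ETV6 (9.18 ± 0.617 and 9.69 ± 0.587 TPM) had overlapping ranges, and ELF3 was lower in the ZHX2 control. In CPM scaled separately, the listed targets EGR1 (1084 ± 80 and 141 ± 7.8 CPM), FOS (572 ± 43 and 60.6 ± 1.1 CPM) and DUSP6 (79.2 ± 6.7 and 8.15 ± 1.2 CPM) were also far apart between the USP13 and the ZHX2 control. The experiment and the control hairpin's cells cannot be told apart, so that only differences from the own control are compared.

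Within each experiment the CPM levels could be ordered by group. ETV1, ETV5, ETS1 and ELK3 were highest with sh43, then with sh45, then in the control, with no overlap at either step. ETV4 had the same order, but the ranges of sh43 and sh45 overlapped, and for ETS2 those of sh45 and the control did. ETV6 ran from sh45 through sh43 to the control, and ELF3 from the control through sh45 to sh43, without overlap. Of the USP13 groups, the ranges of ETS1 alone were separate at both steps, from the control through sh52 to sh50.

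The share of ETS family mRNA held by each gene shows the shift in one measure. Summed over all 28 family genes, levels came to 408 ± 8.55 TPM in the ZHX2 control, 375 ± 9.24 TPM with sh43 and 339 ± 18.8 TPM with sh45. ETV1, ETV4 and ETV5 together made up 4.44 ± 0.233% of this sum in the control, 13.2 ± 0.663% with sh43 and 11.6 ± 0.256% with sh45. ELF3 made up 24.0 ± 0.608%, 5.12 ± 0.269% and 8.91 ± 0.581%, and ETS1 10.1 ± 0.641%, 19.1 ± 0.183% and 13.2 ± 0.771%. In these cells the PEA3 group genes thus held a larger part of ETS mRNA than ELF3 with either ZHX2 hairpin, and a smaller part in the control. In the USP13 experiment the PEA3 group share was 2.16 ± 0.25% in the control, 3.01 ± 0.235% with sh50 and 2.10 ± 0.181% with sh52, and that of ELF3 was 30.9 ± 2.2%, 25.5 ± 0.951% and 29.9 ± 2.07%. The 8 members made up between 44.0% and 48.8% of the sum in the USP13 groups, 49.4% in the ZHX2 control, 58.6% with sh43 and 48.1% with sh45.

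**Figure D3:**
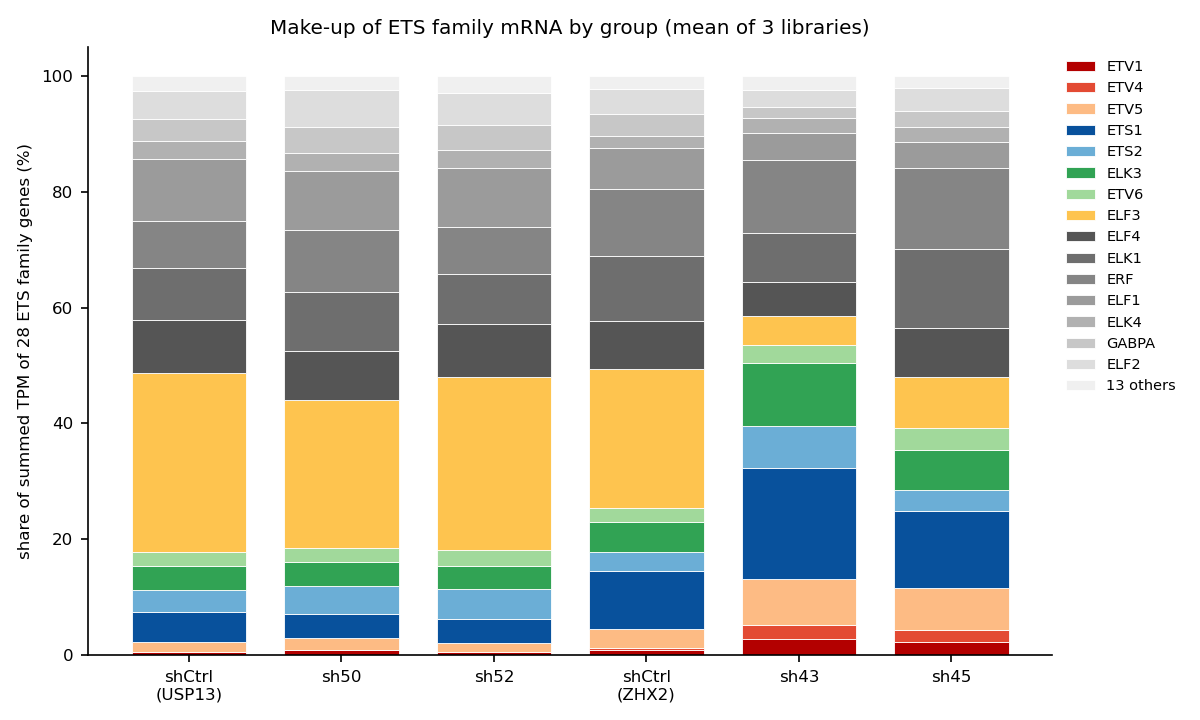
Share of the summed TPM of 28 ETS family genes held by each gene, as the mean of 3 libraries in each of 6 groups. Colours stand for the 8 members and greys for other family genes. ELF3 shrinks from 24.0% in the ZHX2 control to 5.12% with sh43, and the PEA3 group (ETV1, ETV4, ETV5) grows from 4.44% to 13.2%.

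The other 20 ETS family genes are those left when the 8 members, chosen by these contrasts, are taken out, so that their counts too are a description. Tested were 9 of them, and the other 11, among them ERG, FLI1, SPI1 and EHF, did not reach the filter in either experiment. With sh43, 1 rose and 5 fell, where 33.5% of all genes rose and 35.3% fell. GABPA, a widely expressed activator of mitochondrial and ribosomal genes, fell from 43.1 ± 3 CPM to 21.1 ± 1.9 CPM (log2 -1.03, SE 0.09). ELF2 (log2 -0.68, SE 0.10), ELF1 (-0.63, SE 0.07), ELF4 (-0.53, SE 0.06) and ELK1 (-0.48, SE 0.06) fell too. ELK4, a ternary complex factor like ELK3, rose by 0.24 (SE 0.09), which did not pass without sh43 replicate 1 or control replicate 2.

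With sh45, 3 of the 9 rose and 2 fell, beside 25.3% and 27.3% of all genes. GABPA fell by 0.60 (SE 0.08) and ELF1 by 0.70 (SE 0.07), so that these were the 2 that fell with both ZHX2 hairpins. ELK4 rose by 0.29 (SE 0.09), ERF, a repressor that ERK exports from the nucleus, by 0.21 (SE 0.06), and ELK1 by 0.19 (SE 0.06). ELK1 thus fell with sh43 and rose with sh45, and the direct difference was 0.68 (SE 0.06). Leaving out 1 control library ended the calls of ELK1 and ERF (replicate 3) and of ELK4 (replicate 2), and leaving out sh45 replicate 1 that of ELK4. Without control replicate 3, 3 of the 9 were called in all.

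With sh50, 3 of the 9 fell and none rose, where 11.3% of all genes fell and 10.2% rose. They were ETV3 (log2 -0.65, SE 0.22), ELF4 (-0.34, SE 0.07) and ELF1 (-0.31, SE 0.08). Of these only ELF4 passed without sh50 replicate 2. With sh52, 0 of the 9 were called by edgeR or by DESeq2, and 2 had an unadjusted p under 0.05 in edgeR. All 28 family genes counted together, members included, gave 0 higher and 7 lower of 16 tested with sh50 (10.2% and 11.3% of all genes) and 1 and 1 of 16 with sh52 (5.45% and 6.57%). They gave 8 higher and 6 lower of 17 with sh43 (33.5% and 35.3%) and 9 and 3 of 17 with sh45 (25.3% and 27.3%).

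**Figure D4:**
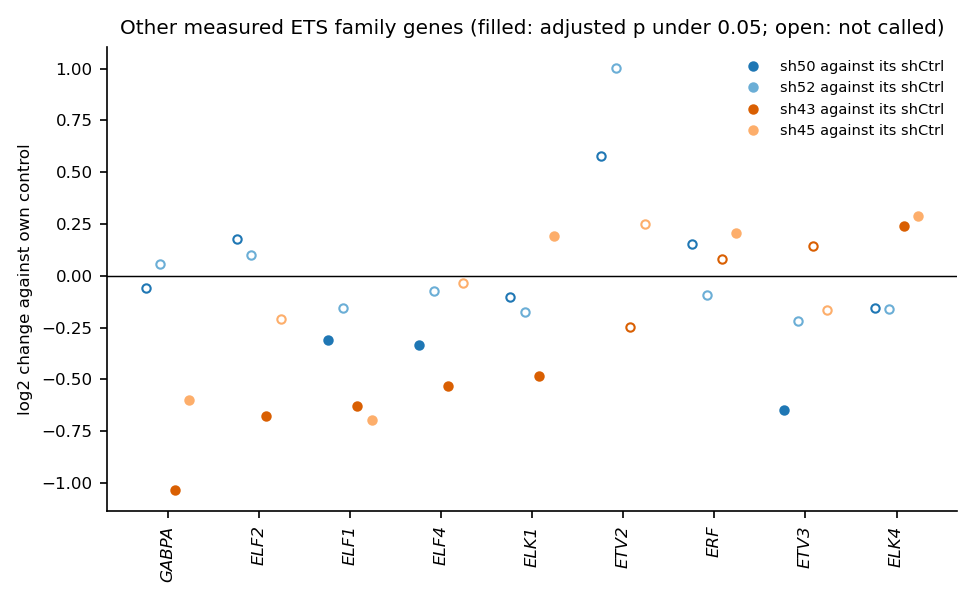
Log2 change of the 9 other ETS family genes that passed the filter on low counts, each hairpin against the control of its own experiment, filled where called. GABPA and ELF1 are filled below 0 with both ZHX2 hairpins (-1.03 and -0.60, -0.63 and -0.70), and no gene is filled with sh52.

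Regulators and partners of ETS factors moved in both directions. Of 29 listed genes, all tested, 10 rose and 9 fell with sh43 (33.5% and 35.3% of all genes), and 6 rose and 10 fell with sh45 (25.3% and 27.3%), with medians of 0.01 and -0.10. CIC, the repressor of the PEA3 group, measured 166 ± 3.3 CPM in the ZHX2 control and 157 ± 5.4 CPM with sh43 (log2 -0.08, SE 0.05), which did not pass. With sh45 it measured 141 ± 7.6 CPM and fell by 0.24 (SE 0.05). Called in 1 direction with both ZHX2 hairpins were 8 of the 29, beside 30.0% of all genes. HRAS rose by 0.80 (SE 0.08) and 0.34 (SE 0.08), and the MAP kinase kinases MAP2K1 (0.38 and 0.22, SE 0.06 each) and MAP2K2 (0.20 and 0.28, SE 0.05 each) rose with it. The receptor MET rose by 0.54 and 0.15 (SE 0.05 each). The second did not pass with effective-length offsets or without sh45 replicate 1 or control replicate 2. Other listed genes of the pathway, named after their values were seen, were lower with 1 hairpin. NRAS averaged 149 ± 13 CPM in the control, 168 ± 2.1 CPM with sh43 and 70.0 ± 3.6 CPM with sh45. MAPK3 averaged 81.6 ± 2.1 CPM in the control, 40.0 ± 1.7 CPM with sh43 and 78.6 ± 5.5 CPM with sh45.

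Among those that fell with both, EGFR changed by -0.70 and -1.20 (SE 0.09 each). DET1, which forms the ubiquitin ligase for PEA3 proteins with COP1, changed by -0.45 (SE 0.17) and -1.19 (SE 0.18), the first resting on sh43 replicate 1 and control replicate 1. MRTFA, a cofactor of serum response factor, changed by -0.42 and -0.33 (SE 0.08 each), and SPOP, an adaptor of another ligase that degrades ETS proteins, by -0.32 and -0.33 (SE 0.08 each). With sh50, 5 of the 29 fell and none rose, where 11.3% of all genes fell and 10.2% rose, and with sh52 4 fell and none rose, where 6.57% fell and 5.45% rose. ATXN1, the partner of CIC, fell with both by 0.32 (SE 0.10 and 0.11), and MET fell by 0.20 and 0.26 (SE 0.06 each). Without control replicate 1 or 2, neither gene passed with either hairpin. The ATXN1 call with sh52 was lost in 9 of 15 alternatives. Among them were the replicate block, upper-quartile factors, effective-length offsets, the fit of the contrast's groups alone and the fit without sh52 replicate 1. The list's count of calls, 5 with sh50 and 4 with sh52, was 3 and 2 under alternatives that end the calls of ATXN1 and MET.

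Genes known as targets of ETS factors or of CIC mostly rose in the ZHX2 experiment. Several of the 39 listed genes had been described in these libraries before the list was made, so that it is not independent evidence. Tested were 33, of which 24 rose and 7 fell with sh43 (33.5% and 35.3% of all genes) and 19 rose and 8 fell with sh45 (25.3% and 27.3%). The median log2 change was 0.51 and 0.56. With both hairpins 18 rose and 5 fell, where 14.1% and 15.9% of all genes did. Phosphatases of ERK were among those that rose with both: DUSP6 from 8.15 ± 1.2 CPM to 31.2 ± 0.93 CPM with sh43 and 25.8 ± 0.57 CPM with sh45 (log2 1.94, SE 0.10, and 1.66, SE 0.11), and DUSP5 from 20.8 ± 1.4 CPM to 108 ± 4.3 and 48.8 ± 0.78 CPM (2.37 and 1.23, SE 0.07 each). DUSP4, named after its values were seen, rose from 4.76 ± 0.47 CPM to 15.8 ± 1.7 and 7.02 ± 0.15 CPM (log2 1.74, SE 0.14, and 0.56, SE 0.16).

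SPRY4, a feedback inhibitor of receptor signalling, rose from 0.89 ± 0.12 CPM to 11.9 ± 3 CPM with sh43 and 3.42 ± 0.85 CPM with sh45 (log2 3.73, SE 0.26, and 1.93, SE 0.31). FOSL1, an AP-1 subunit, rose by 1.99 and 2.29 (SE 0.06 each), and PHLDA1 by 1.91 and 1.46 (SE 0.05 each). MMP1, the interstitial collagenase, rose from 0.515 ± 0.27 CPM to 21.3 ± 2.6 and 1.70 ± 0.13 CPM (log2 5.36, SE 0.23, and 1.74, SE 0.36). PLAU, the protease urokinase, rose from 70.2 ± 1.7 CPM to 184 ± 7.8 and 258 ± 1.9 CPM (log2 1.39 and 1.88, SE 0.05 each).

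EGR1 and FOS, both immediate early genes, went the other way. EGR1 fell from 141 ± 7.8 CPM in the ZHX2 control to 3.40 ± 2 CPM with sh43 and 9.59 ± 1.5 CPM with sh45, by 5.32 (SE 0.15) and 3.87 (SE 0.13). FOS fell from 60.6 ± 1.1 CPM to 2.41 ± 0.77 and 3.22 ± 0.31 CPM, by 4.63 (SE 0.13) and 4.22 (SE 0.12). Both are induced through serum response factor and the ternary complex factors, the subfamily of ELK3, ELK1 and ELK4. MMP7, the matrix protease matrilysin, fell with all 4 hairpins: from 7.50 ± 1.7 CPM by 2.31 (SE 0.25) and 1.99 (SE 0.24) with sh43 and sh45, and from 18.4 ± 1.4 CPM by 1.85 and 1.68 (SE 0.15 each) with sh50 and sh52.

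With the USP13 hairpins the targets split. Of 32 tested, 7 rose and 11 fell with sh50 (10.2% and 11.3% of all genes), and 7 rose and 6 fell with sh52 (5.45% and 6.57%). Called with both were 5 higher and 5 lower, beside 3.26% and 4.16% of all genes. VEGFA rose by 0.42 and 0.46 (SE 0.06 each), FOSL1 by 0.38 and 0.50 (SE 0.10 each) and CCND1 by 0.28 and 0.41 (SE 0.05 each). MMP14 fell by 0.36 and 0.39 (SE 0.07 each), KRT8 by 0.51 and 0.31 (SE 0.06 each) and PLAU by 0.49 and 0.30 (SE 0.08 each). PHLDA1 fell by 0.27 and 0.23 (SE 0.07 each), FOS rose by 0.28 and 0.18 (SE 0.05 each), and TIMP1 rose by 0.18 with each (SE 0.05). Without control replicate 1, FOSL1 did not pass with sh50, nor PLAU, PHLDA1, FOS and TIMP1 with sh52. Control replicate 2 ended the calls of PLAU, FOS and TIMP1 with sh52 and of TIMP1 with sh50, and sh52 replicate 3 those of PLAU, PHLDA1, FOS and TIMP1 with sh52. FOS also needed sh52 replicate 2, and PHLDA1 and TIMP1 sh52 replicate 1. The sh52 count of 13 fell to 7, 7 and 8 without sh52 replicate 3, control replicate 1 and control replicate 2.

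**Figure D5:**
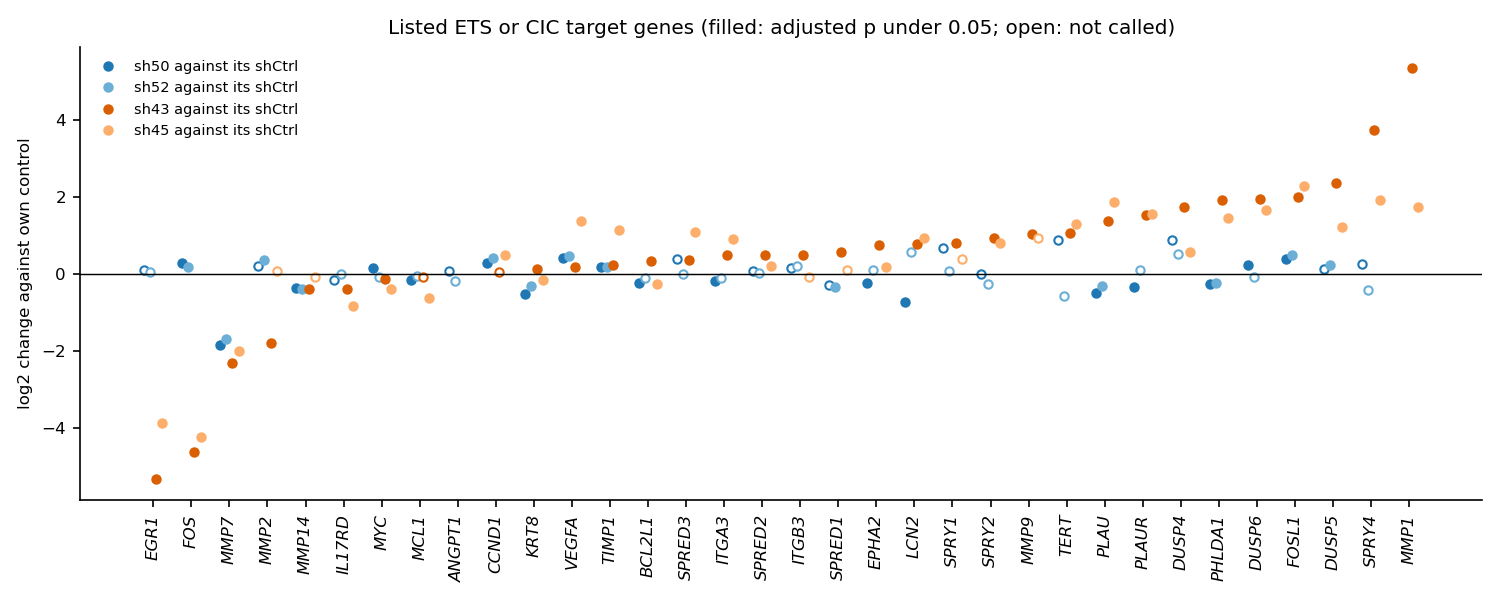
Log2 change of the listed target genes of ETS factors or CIC, each hairpin against the control of its own experiment. Points are filled where called, and genes are in order of the change with sh43. EGR1 and FOS lie at the far left, at -5.32 and -4.63 with sh43, and SPRY4 and MMP1 at the far right, at 3.73 and 5.36.

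Estimated counts were spread over several transcripts of most members. The 8 quantified transcripts of ETV1 held between 8.52% and 16.3% of its counts each as group means, the 5 of ETV4 between 12.0% and 26.7% in the ZHX2 groups and the 4 of ETS1 between 19.3% and 28.7%. ETS2 and ELF3 were each split nearly evenly over 2 transcripts, from 46.5% to 53.5% and from 43.2% to 56.8%. In ELK3 the longer transcript NM_005230 (4205 bases) held between 62.5% and 70.6% in all 6 groups, and the other transcript has 2968 bases. An even split would give 12.5% for ETV1, 20% for ETV4, 25% for ETS1 and 50% for ETS2, ELK3 and ELF3. These shares are Salmon's estimates for reads that more than 1 transcript can explain. Taken alone, they do not show which transcripts were expressed. ETV5 and ETV6 were quantified as 1 transcript each.

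The genes most like each member were sought among the 13175 genes tested in both experiments, by the root-mean-square distance over 18 libraries of log2 CPM less the mean of the own controls. All points share the control means, and the distance is a description. Nearest to ELF3 was GSN, which encodes the actin-severing protein gelsolin, at 0.0929, then SCD at 0.134 and MAP7D2 at 0.139. ELK3 was nearest to HK2, TUBA1B and RAI14, at 0.0872, 0.0873 and 0.0879, and ETS1 to the integrin subunit ITGA5 at 0.112, SUCO at 0.119 and HPRT1 at 0.144. ITGA5 changed by 0.84 with sh43, 0.33 with sh45, -0.60 with sh50 and -0.28 with sh52. ETV1 was nearest to FAH at 0.222, TFPI2 at 0.237 and NLRP1 at 0.245, and ETV5 to ZBTB21 at 0.142, E2F7 at 0.162 and DRAP1 at 0.166. ETS2 was nearest to LYPD1 at 0.0951, KLHL29 at 0.116 and KLF4 at 0.121, and ETV6 to PLOD3 at 0.0945, KDELR2 at 0.105 and PRICKLE3 at 0.124. ETV4 was not tested in both experiments and has no such neighbour.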

How the data were processed

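RNA of 786-O cells was sequenced in 18 libraries, as paired reads of 150 bases from a TruSeq v2 kit, which does not mark strand, per the labels' protocols. Each deposited file is a Salmon table by RefSeq transcript, per the file headers, holding estimated counts, TPM, lengths and effective lengths. Per the submitters' processing notes, Salmon 0.11.3, STAR 2.5.2b, DESeq2 1.14.1, cutadapt 1.12 and build hg19 were used, with no role or order given. The deposited estimated counts were not scaled and were whole numbers within 1e-06. TPM, as deposited, sums to the same total in each library and entered no test. Effective lengths served only as offsets in an alternative.

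Counts were rounded and summed to genes. Of 60422 transcripts listed, 1342 were further copies, 59301 were named by the RefSeq gene table (GRCh38.p14), 684 by GENCODE 29, and 437 had no name (0.0854% to 0.12% of counts, left out). With R 4.3.3, edgeR 4.0.16 was run with filterByExpr, TMM factors, 1 mean per group and the quasi-likelihood F-test. All 9 libraries of an experiment, or all 18 for the difference between responses, were fitted together, with Benjamini-Hochberg adjustment over all genes. CPM were TMM-scaled within an experiment. A permutation test of 3 libraries against 3 cannot go below 0.10. The code was tested on simulated data. Named are the 8 members, the targets, the other family genes, up to 10 genes per list called in 1 direction with both hairpins (largest change first), CIC, and the 3 genes most like each member. CIC, NRAS, MAPK3 and the overlapping gene DHX8 were singled out after values were seen. The members and lists were chosen with earlier results of these data known. From the list of targets 1 gene is not reported here and enters no count of that list. Alternatives were DESeq2 1.42.0, upper-quartile factors, no filter, effective-length offsets, the groups of a contrast alone, the replicate number as a block, and each library left out.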

Additional observations from a re-analysis of the deposited data

Results flagged for a closer look

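The mean log2 change of both USP13 hairpins was set against that of both ZHX2 hairpins, each against its own controls, in 1 edgeR fit of 18 libraries. All 8 members passed the threshold for this difference, as did 43.4% of 14200 genes. ETV4 entered this fit only through the ZHX2 hairpin libraries, where it was high, since it did not reach the filter in the USP13 experiment. This difference is made from the contrasts that chose the members and is given as a description.

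The USP13 response was lower than the ZHX2 response by 1.31 on the log2 scale for ETV1 (value -1.31, SE 0.18), and the values were -1.17 for ETV5 (SE 0.11), -1.15 for ETS1 (SE 0.08), -0.87 for ELK3 (SE 0.09), -0.62 for ETV6 (SE 0.10) and -0.39 for ETS2 (SE 0.10). ELF3 was the exception in sign, at 1.53 (SE 0.08), its fall being larger with ZHX2 hairpins. For ETS1, ELK3 and ETV6 the responses of the experiments had opposite signs with every hairpin, but only ETS1 was called with each of them. For ETV4 the value was -3.67 (SE 0.85), and it rests on USP13 libraries with 0 to 5 counts each. Without USP13 control replicate 2, the library with 5 counts, ETV4 no longer passed (log2 -3.00).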

How the results depend on the processing

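The number of members called with sh43 (8), with sh45 (7), between sh45 and sh43 (7) and between responses (8) stayed within 1.5 times under all alternatives run. The USP13 counts did not: the 4 called with sh50 became 2 at the lowest when 1 library was left out (sh50 replicate 1, sh50 replicate 2 or control replicate 1), and 4 at the highest. The 2 called with sh52 became 1 at the lowest (without sh52 replicate 1 or control replicate 1) and 2 at the highest. The 1 called between sh52 and sh50 became 2 without the filter on low counts and ranged from 1 to 2 when a library was left out. With 1 library left out, the ETV1 change with sh52 ranged from -0.31 (without sh52 replicate 3) to 0.073. Its sign reversed to 0.073 without sh52 replicate 2 and to 0.040 without control replicate 1. ELK3 with sh50 did not pass by DESeq2 or, in edgeR, after upper-quartile scaling, without the filter, with effective-length offsets or without any 1 of 7 libraries. ETV5 between sh45 and sh43 did not pass with upper-quartile factors or without any 1 of 4 libraries.

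Over all genes, 1647 were called with sh52, and 1023 or 990 without control replicate 1 or 2. The 1401 called between sh52 and sh50 became 838 or 684 without sh50 replicate 1 or 2. The deviations of same-numbered libraries from their group means correlated across genes between -0.103 and 0.0543 (USP13) and between -0.0649 and 0.0385 (ZHX2), so the numbers pair nothing. With the replicate number as a block, 3, 2, 8 and 7 members were called with sh50, sh52, sh43 and sh45, ELK3 being the call lost. Depth limits ETV4 in the USP13 experiment.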
